A study of Mus musculus with 12 samples.

Results

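The genes described here moved the same way in both kinds of Ezh2-mutant mouse embryonic fibroblasts (MEFs), each set against wild-type cells from its own littermates. MEFs are connective tissue cells grown from mouse embryos. All 12 of the 12 RNA-seq libraries of the series were used, in 4 groups of 3. The Ezh2b set holds the Ezh2b mutant and its littermate wild type, and the Ezh2a set holds the Ezh2a mutant and its littermate wild type. The title of the series speaks of EZH2 isoforms that arise from cryptic splice sites. The labels call each mutant a mutation of Ezh2a or Ezh2b and give neither the edited bases nor the strain, the age of the embryos, or whether replicates came from separate embryos or cultures. Adjusted p-values below thus reflect how far these libraries spread, which may be technical. All groups were grown in the same serum-supplemented medium, and no further treatment is named.

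EZH2 is the methyltransferase of Polycomb repressive complex 2 (PRC2), which places methyl groups on lysine 27 of histone H3 (H3K27). Genes marked in this way are mostly kept silent, and developmental regulators such as the Hox genes are the classic examples in embryonic cells. In cultured fibroblasts PRC2 is also known for holding down Cdkn2a, a locus of cell-cycle inhibitors.

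The depth was 28811482 to 46722325 counts in Ezh2b mutant libraries, 29444354 to 54070380 in Ezh2b wild types, 29175698 to 33780452 in Ezh2a mutant libraries and 31051443 to 39344643 in Ezh2a wild types. All 15 fibroblast markers had counts in every library, and together they held 4.04% to 4.97% of counts. Ezh2b wild-type replicate 3 stood apart as the deepest library, with 2.13% of its counts in mitochondrial genes against 1.62% to 1.86% in the others. It differed from the other Ezh2b wild types with a mean chi-square per gene of 11.3 and 12.4, while the other pairs within a group had 2.63 to 4.67. Macrophage and leukocyte markers differed between groups: their summed share was 0.053% to 0.0571% of counts in the Ezh2b mutant and 0.0121% to 0.0132% in its wild type. In the Ezh2a set this sum was 0.18% to 0.192% in the mutant and 0.188% to 0.193% in the wild type.

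Ezh2 itself did not move alike in the mutants. Ezh2 (GRCm38, chromosome 6, 47530139 to 47595341, minus strand) was at 35.4, 33.6 and 36.4 CPM in the Ezh2b mutant, against 33.8, 35.8 and 35.3 CPM in its wild type, where CPM is the usual depth-scaled count, here with TMM factors. It was at 14.2, 15.2 and 14.2 CPM in the Ezh2a mutant, against 30.5, 30.4 and 30.1 CPM in its wild type. The Ezh2b groups overlapped, while every Ezh2a mutant library lay below every Ezh2a wild-type library. The mean of both effects, as a log2 fold change, was -0.53 (SE 0.035, adjusted p = 1.12e-09) by edgeR's quasi-likelihood test with Benjamini-Hochberg adjustment, the test behind every adjusted p that follows. That mean came from the Ezh2a set, at -1.06 (SE 0.052, adjusted p = 3.38e-11), since the Ezh2b effect was 0.00 (SE 0.047, adjusted p = 0.969). Ezh1, the other H3K27 methyltransferase, did not pass the test for the mean effect, at 0.05 (SE 0.043, adjusted p = 0.426).

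Of 15708 tested genes, 340 rose in both mutants (2.16%) and 230 fell in both (1.46%), with an adjusted p under 0.05 in each set, 570 genes together (3.63%). Another 936 genes (5.96%) passed in both sets with opposite signs. Of these, 437 were lower in the Ezh2b mutant and higher in the Ezh2a mutant, and 499 were higher in the Ezh2b mutant and lower in the Ezh2a mutant. The Ezh2b set alone called 2200 genes higher (14.0%) and 1905 lower (12.1%), and the Ezh2a set alone called 1509 higher (9.61%) and 1609 lower (10.2%). Scaling by library totals in place of TMM factors gave 1910 higher and 2525 lower in the Ezh2b set, and 2061 higher and 1117 lower in the Ezh2a set. The genes that rose in both mutants make up 15.5% of the Ezh2b rises and 22.5% of the Ezh2a rises, and those that fell in both make up 12.1% of the Ezh2b falls and 14.3% of the Ezh2a falls. Across all tested genes the effects had a Pearson r of -0.0173 and a Spearman rho of -0.0769, given as a description because genes are not independent replicates. In bulk RNA, fewer cells of a type and less RNA per cell cannot be told apart.

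**Figure D1:**
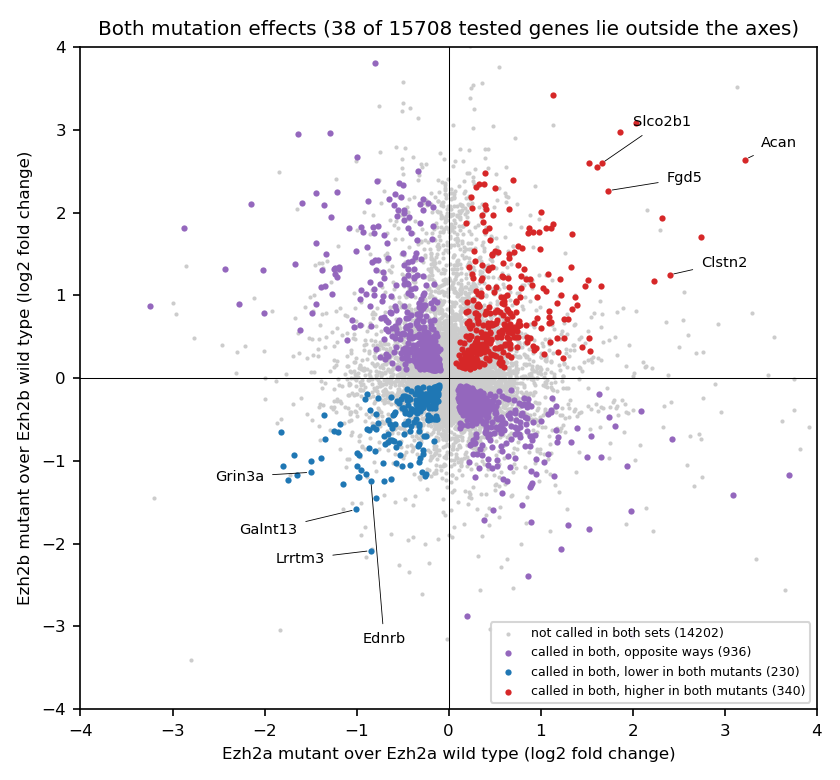
Log2 fold change of the Ezh2b mutant over its wild type (y axis) against that of the Ezh2a mutant over its wild type (x axis), where each point is a tested gene and colours mark the 340 genes higher in both, the 230 lower in both and the 936 called in both with opposite signs. The axes end at 4 in each direction, which leaves 38 genes outside, and the coloured points lie in every quadrant.

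The mean of both effects called more genes than were called in both sets. It passed in 3370 genes (21.5%), of which 1879 were higher (12.0%) and 1491 lower (9.49%) in the mutants. Of these, 570 (16.9%) were called the same way in both sets. The test was passed in the Ezh2b set alone by 1476 of them and in the Ezh2a set alone by 806. A further 254 were called in both sets with opposite signs, and 264 in neither set by itself. The last had the same sign in both sets throughout. The tests nearly fix this, since effects of opposite sign offset each other in the mean. The median absolute mean effect of these 264 genes was 0.246 for the 108 higher and 0.119 for the 156 lower genes on the log2 scale.

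The genes that rose in both mutants had a median log2 fold change of 0.587 in the Ezh2b set and 0.454 in the Ezh2a set, and those that fell in both had medians of -0.324 in the Ezh2b set and -0.309 in the Ezh2a set. In 331 of the 340 rises and 221 of the 230 falls, the 3 mutant libraries were all above, or all below, the 3 wild-type libraries in each set. Over all tested genes such a separation was found upward for 632 genes (4.02%) and downward for 484 (3.08%). The calls rest on the same libraries, so the separation of called genes largely follows from them and adds no support. The effects differed between the sets in 123 of the rises (36.2%) and 64 of the falls (27.8%) by the test of the difference, which 26.5% of all tested genes passed. A log2 fold change of at least 0.5 in both sets was reached by 114 rises and 51 falls. Levels also differed between the sets. In a common rise the highest group mean must be that of a mutant and the lowest that of a wild type. Among the 340 rises the Ezh2a mutant was highest in 296 genes and the Ezh2b wild type lowest in 301. The Ezh2b mutant mean lay at or above that of the Ezh2a wild type in 154 of the rises and below it in 186. Among the 230 falls the Ezh2a mutant was lowest in 176 and the Ezh2b wild type highest in 182. There the Ezh2b mutant mean lay at or below that of the Ezh2a wild type in 125 and above it in 105. Such orders were not counted over all tested genes.

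Among same-way genes whose average log2 CPM was 1 or more and whose mutant and wild-type libraries did not overlap in either set, ranked by the smaller of both effects, Acan had the largest rise. It encodes aggrecan, the main proteoglycan of cartilage (chromosome 7, 79053483 to 79115099, plus strand). Acan stood at 2.56, 3.5 and 2.85 CPM in the Ezh2b mutant, against 0.546, 0.482 and 0.439 CPM in its wild type. It stood at 12.9, 15.6 and 13.6 CPM in the Ezh2a mutant, against 1.63, 1.48 and 1.37 CPM in its wild type. All mutant libraries were above their own wild types, and the Ezh2a mutant was above every other group. The log2 fold changes were 2.64 (SE 0.18, adjusted p = 1.28e-09) in the Ezh2b set and 3.22 (SE 0.14, adjusted p = 3.84e-12) in the Ezh2a set, or 6.23-fold and 9.3-fold, and their difference of -0.58 (SE 0.26, adjusted p = 0.106) did not pass.

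The promoters of 5 of the genes that moved alike are shown because mammalian PRC2 is known for binding stretches rich in the dinucleotide CG, which is in capitals in each. Each window is the 250 bases before the RefSeq start of the gene on GRCm38, read 5′ to 3′ on the strand of the gene. They lie at chr7:79052976-79053225 on the plus strand for Acan, chr1:42695518-42695767 on the plus strand for Pou3f3, chr6:52164832-52165081 on the minus strand for Hoxa2, chr2:74674763-74675012 on the plus strand for Hoxd12 and chr14:103843702-103843951 on the minus strand for Ednrb. Acan, Pou3f3 and Hoxa2 rose in both mutants, and Hoxd12 and Ednrb fell in both.
Acan: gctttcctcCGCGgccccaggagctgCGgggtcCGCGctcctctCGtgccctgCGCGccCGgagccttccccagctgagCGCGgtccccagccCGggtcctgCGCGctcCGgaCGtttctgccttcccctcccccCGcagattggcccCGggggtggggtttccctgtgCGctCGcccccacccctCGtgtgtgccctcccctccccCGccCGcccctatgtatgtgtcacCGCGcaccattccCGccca
Pou3f3: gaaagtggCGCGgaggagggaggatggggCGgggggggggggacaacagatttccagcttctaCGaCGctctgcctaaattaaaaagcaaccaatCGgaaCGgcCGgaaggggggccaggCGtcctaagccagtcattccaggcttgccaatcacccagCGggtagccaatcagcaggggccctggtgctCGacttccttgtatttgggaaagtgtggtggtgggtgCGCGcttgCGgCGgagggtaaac
Hoxa2: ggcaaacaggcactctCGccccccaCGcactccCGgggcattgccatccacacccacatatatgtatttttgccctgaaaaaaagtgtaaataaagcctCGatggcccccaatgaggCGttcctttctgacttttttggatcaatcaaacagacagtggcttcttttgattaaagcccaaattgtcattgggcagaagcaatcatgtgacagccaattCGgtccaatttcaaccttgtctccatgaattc
Hoxd12: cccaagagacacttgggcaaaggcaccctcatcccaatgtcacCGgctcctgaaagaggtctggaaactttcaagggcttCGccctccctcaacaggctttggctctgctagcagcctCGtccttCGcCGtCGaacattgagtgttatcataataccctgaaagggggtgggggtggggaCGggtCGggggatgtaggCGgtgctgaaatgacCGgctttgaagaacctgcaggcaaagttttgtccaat
Ednrb: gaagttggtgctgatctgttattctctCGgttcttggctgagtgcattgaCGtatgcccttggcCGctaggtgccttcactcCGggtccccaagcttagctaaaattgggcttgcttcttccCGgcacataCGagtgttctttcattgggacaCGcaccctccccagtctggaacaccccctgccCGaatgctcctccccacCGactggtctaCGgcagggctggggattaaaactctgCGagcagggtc
The windows hold 26 CG in Acan, 15 in Pou3f3, 6 in Hoxa2, 10 in Hoxd12 and 11 in Ednrb. Among the 12235 tested genes with such a window the median was 15, and 98.5% held at least 1 CG, a motif that reads the same on both strands. None of these 5 windows overlaps an exon of GENCODE M21, and that of Ednrb lies inside the annotated span of the gene. Histone marks were not analysed here.

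The 15 largest rises included those of the transcription factors Zic1 and Pou3f3. Separated libraries in both sets were a condition of this ranking, so the lack of overlap in these genes is no added support. Zic1, a zinc-finger transcription factor of the early nervous system and somites (chromosome 9, 91358058 to 91365810, minus strand), stood at 7.39, 7.88 and 7.36 CPM in the Ezh2b mutant, against 2.8, 3.44 and 4.17 CPM in its wild type. Zic1 stood at 15.5, 17.9 and 16.3 CPM in the Ezh2a mutant, against 8.19, 7.91 and 8.34 CPM in its wild type. The groups of each set did not overlap, and the log2 fold changes were 1.09 (SE 0.12, adjusted p = 4.29e-07) in the Ezh2b set and 1.02 (SE 0.1, adjusted p = 4.05e-07) in the Ezh2a set, with a difference of 0.07 (SE 0.15, adjusted p = 0.796). Zic1 overlaps Zic4 on the other strand, and since the protocol names no strand-marking step the reads of overlapping genes cannot be told apart. Pou3f3, a POU-domain transcription factor (chromosome 1, 42695768 to 42703176, plus strand), was at 1.24, 1.34 and 1.2 CPM in the Ezh2b mutant, against 0.289, 0.689 and 0.659 CPM in its wild type. Pou3f3 was at 15.4, 18.7 and 16.8 CPM in the Ezh2a mutant, against 3.55, 3.49 and 3.77 CPM in its wild type. Its rise was 1.17 (SE 0.22) in the Ezh2b set and 2.23 (SE 0.12) in the Ezh2a set, with a difference of -1.07 (SE 0.27, adjusted p = 0.00481).

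Zdbf2, an imprinted gene expressed from the paternal copy (chromosome 1, 63273265 to 63314576, plus strand), had 17, 17.1 and 16.8 CPM in the Ezh2b mutant, against 6.94, 6.64 and 8.49 CPM in its wild type. It had 39.7, 42.7 and 40.2 CPM in the Ezh2a mutant, against 13.5, 15.2 and 14.4 CPM in its wild type. Every mutant library lay above its wild types, with log2 fold changes of 1.18 (SE 0.08) in the Ezh2b set and 1.51 (SE 0.071) in the Ezh2a set. Fgd5, an exchange factor for the GTPase Cdc42, rose by 2.26 (SE 0.23) in the Ezh2b set and 1.73 (SE 0.18) in the Ezh2a set. Slco2b1, an organic anion transporter, rose by 2.59 (SE 0.33) in the Ezh2b set and 1.66 (SE 0.18) in the Ezh2a set, with 2, 2 and 19 counts in the Ezh2b wild type. Clstn2, a synaptic adhesion protein of the calsyntenin family, rose by 1.25 (SE 0.15) in the Ezh2b set and 2.40 (SE 0.12) in the Ezh2a set. Egfl6, a secreted matrix protein with EGF repeats, rose by 0.89 (SE 0.085) in the Ezh2b set and 1.39 (SE 0.078) in the Ezh2a set. The other rises among the 15 largest were Chrna7 and Grik1, which encode subunits of nicotinic and kainate receptors, the secreted Wnt modulator Sfrp4, the adenylyl cyclase Adcy5, and Tmem108, Afap1l1 and Ildr2. The smaller of their log2 fold changes lay between 0.89 and 1.33.

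**Figure D2:**
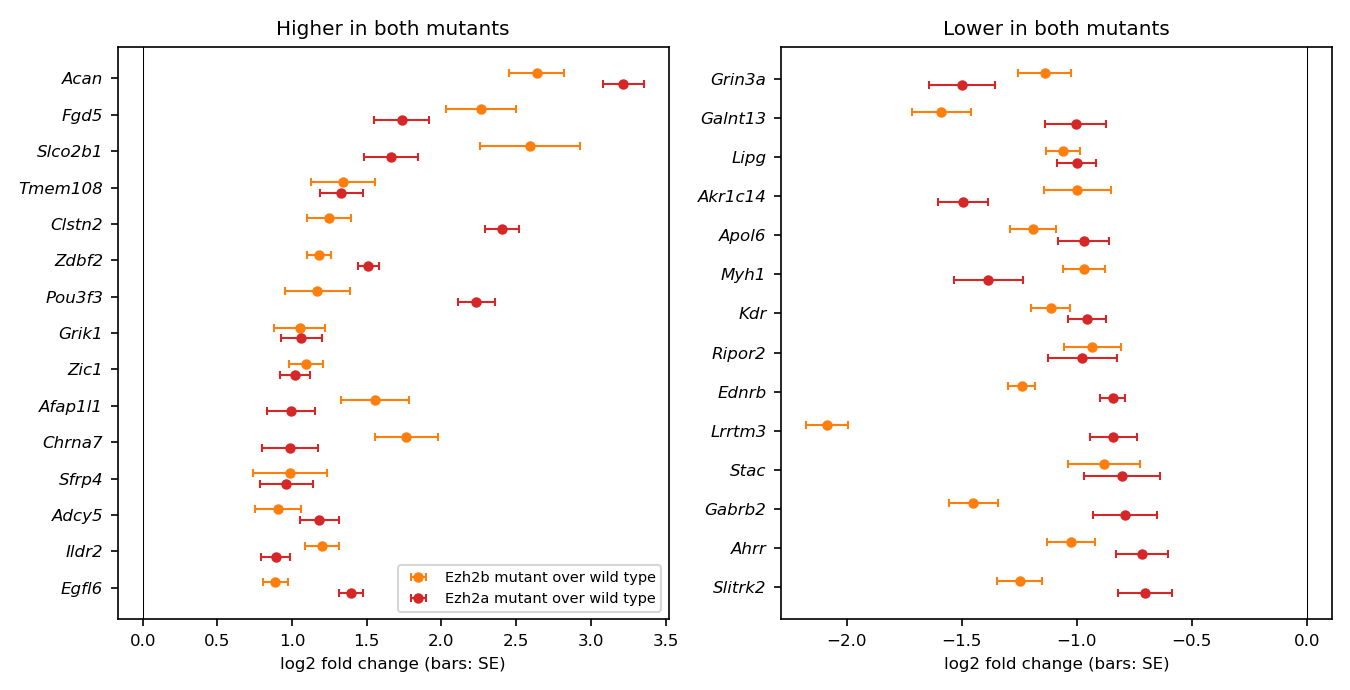
Log2 fold changes with SE of the 15 largest rises and 14 of the 15 largest falls, ranked by the smaller of both effects among same-way genes with separated libraries and a mean log2 CPM of 1 or more, for the Ezh2b mutant and the Ezh2a mutant over their own wild types. As the selection requires, the points of each rise lie above 0 and those of each fall below 0 in both sets. Clstn2, Pou3f3 and Lrrtm3 are among the genes whose effects differ in size.

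Among the largest falls, for which separated libraries were likewise required, were receptors of the cell surface. Ednrb, the endothelin receptor B (chromosome 14, 103814625 to 103844402, minus strand), was at 15.7, 17.6 and 16.8 CPM in the Ezh2b mutant, against 42.7, 37.7 and 38.5 CPM in its wild type. Ednrb was at 25, 23.8 and 26.1 CPM in the Ezh2a mutant, against 45.7, 44.2 and 44.6 CPM in its wild type. Mutant and wild-type libraries did not overlap in either set, and the log2 fold changes were -1.24 (SE 0.058, adjusted p = 5.24e-12) in the Ezh2b set and -0.84 (SE 0.056, adjusted p = 2.07e-09) in the Ezh2a set. Kdr, a receptor for vascular endothelial growth factor (chromosome 5, 75932827 to 75978458, minus strand), was at 4.94, 5.1 and 5.23 CPM in the Ezh2b mutant, against 10.5, 11.8 and 10.8 CPM in its wild type. Kdr was at 5.92, 6.09 and 6.04 CPM in the Ezh2a mutant, against 11, 12 and 12 CPM in its wild type. Its mutant libraries were below both wild types in either set, with log2 fold changes of -1.11 (SE 0.084) in the Ezh2b set and -0.95 (SE 0.083) in the Ezh2a set.

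Kdr is also an endothelial marker. The 15 endothelial markers together held 0.0162% to 0.0166% of counts in the Ezh2b mutant and 0.0119% to 0.0123% in its wild type, and 0.0154% to 0.0165% in the Ezh2a mutant and 0.0163% to 0.0171% in its wild type. Cldn5, Robo4 and Sox17 were at 0 in all 12 libraries, Pecam1 in 4 and Cdh5 in 3. Of 7 endothelial markers tested, 0 rose in both mutants, 1 (Kdr) fell in both and 3 were called opposite ways. Of all tested genes, 1.46% fell in both and 5.96% were called opposite ways.

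Lipg, the endothelial lipase gene, had 11.4, 12.3 and 12.5 CPM in the Ezh2b mutant, against 23, 28.1 and 24.7 CPM in its wild type. It had 6.81, 6.76 and 6.41 CPM in the Ezh2a mutant, against 13.6, 13.7 and 12.7 CPM in its wild type. The groups of each set did not overlap, and the log2 fold changes were -1.06 (SE 0.074) in the Ezh2b set and -1.0 (SE 0.084) in the Ezh2a set. Lrrtm3, a synaptic leucine-rich repeat protein whose gene overlaps Ctnna3 on the other strand, had log2 fold changes of -2.08 (SE 0.091) in the Ezh2b set and -0.84 (SE 0.1) in the Ezh2a set. Those of Grin3a, a subunit of the NMDA receptor, were -1.14 (SE 0.12) in the Ezh2b set and -1.50 (SE 0.14) in the Ezh2a set. Gabrb2, a subunit of the GABA-A receptor, had -1.45 (SE 0.11) in the Ezh2b set and -0.79 (SE 0.14) in the Ezh2a set. For Myh1, a myosin heavy chain of fast skeletal muscle, they were -0.97 (SE 0.092) in the Ezh2b set and -1.38 (SE 0.15) in the Ezh2a set. Akr1c14, a hydroxysteroid dehydrogenase with near copies in its gene family among which reads may be split, had -0.997 (SE 0.14) in the Ezh2b set and -1.49 (SE 0.11) in the Ezh2a set. The 15 largest falls also held Galnt13, Apol6, Ripor2, Stac, Ahrr and Slitrk2.

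Cdkn2a (chromosome 4, 89274471 to 89294653, minus strand) was at 50.1, 51.9 and 51.6 CPM in the Ezh2b mutant, against 59.7, 62.9 and 61 CPM in its wild type. It was at 20.1, 20.3 and 21.5 CPM in the Ezh2a mutant, against 37.2, 39.7 and 39.1 CPM in its wild type. The mutant libraries were below their wild types in both sets, with log2 fold changes of -0.26 (SE 0.042) in the Ezh2b set and -0.90 (SE 0.047) in the Ezh2a set, which differed by 0.65 (SE 0.063, adjusted p = 1.78e-07). The table gives 1 value for the locus, so its alternative transcripts are not told apart.

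**Figure D3:**
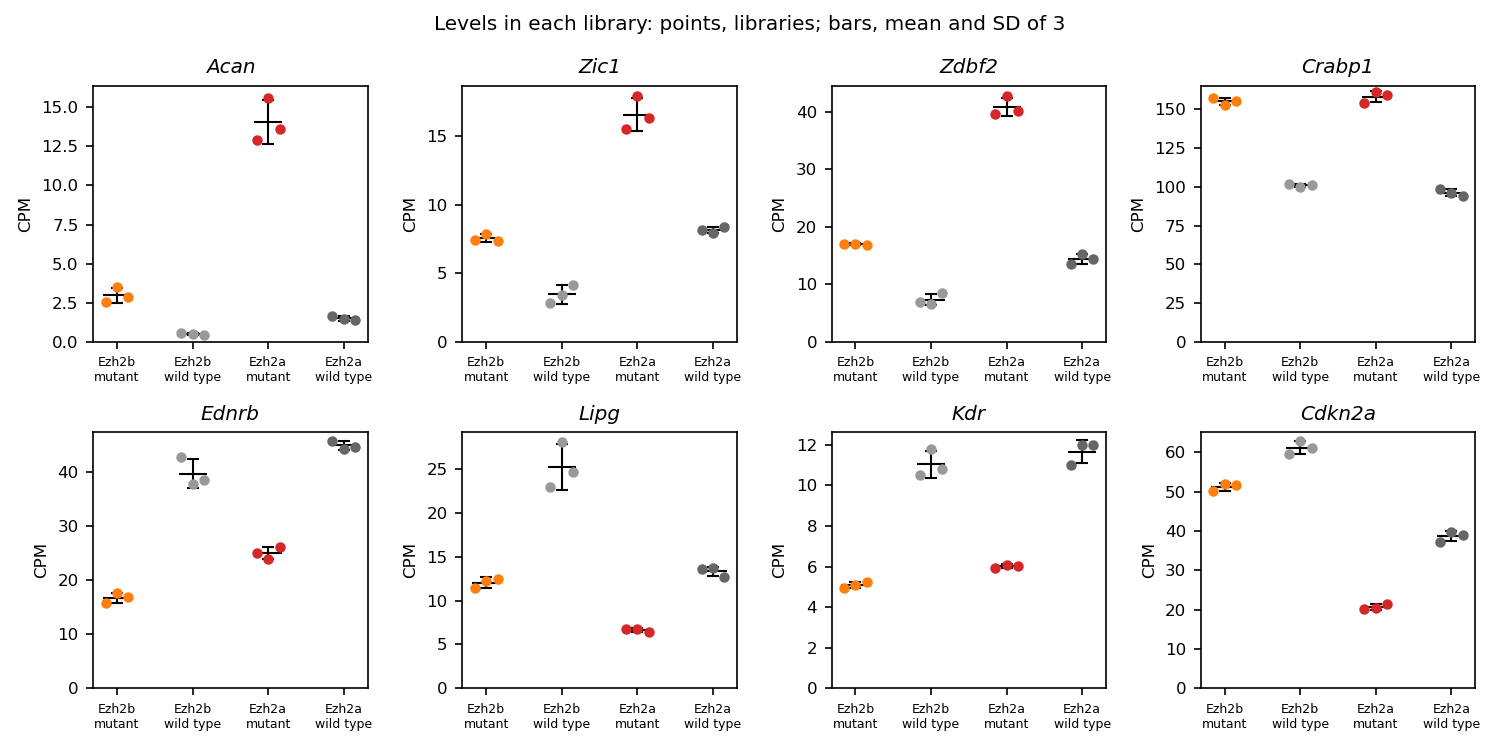
Level in CPM (y axes, from 0) of selected genes in each library, with each mutant left of its own wild type, a point per library and the mean with SD of 3 libraries. Genes such as Acan and Zic1 are higher in both mutants and genes such as Ednrb and Kdr are lower in both, with no overlap between a mutant and its own wild type. The ranking required this separation of all genes shown but Crabp1 and Cdkn2a.

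Hox genes, which set position along the body axis and the limb, moved in both directions. Of 25 tested genes of Hox groups 1 to 9, 4 rose in both mutants, 0 fell in both and 4 were called opposite ways, against 2.16% rises and 1.46% falls over all tested genes. Of 9 tested genes of Hox groups 10 to 13, 0 rose in both mutants, 6 fell in both and 1 was called opposite ways. The median of the mean effect was 0.428 for groups 1 to 9 and -0.609 for groups 10 to 13, beside -0.00382 for all tested genes. Both effects were above 0 in 17 of the 25 genes, and both were below 0 in 7 of the 9.

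Hoxa2, Hoxa5 and Hoxd3 were among the Hox genes that rose. Hoxa2 (chromosome 6, 52162417 to 52164831, minus strand) was at 1.71, 1.31 and 1.84 CPM in the Ezh2b mutant, against 0.803, 0.585 and 0.787 CPM in its wild type. Hoxa2 was at 4.71, 3.98 and 3.25 CPM in the Ezh2a mutant, against 1.3, 1.71 and 1.28 CPM in its wild type. The libraries did not overlap in either set, and the log2 fold changes were 1.12 (SE 0.23, adjusted p = 0.000843) in the Ezh2b set and 1.48 (SE 0.19, adjusted p = 1.21e-05) in the Ezh2a set. Hoxd3 rose by 1.45 (SE 0.17) in the Ezh2b set and 0.66 (SE 0.14) in the Ezh2a set. Hoxa5 rose by 0.56 (SE 0.13) in the Ezh2b set and 0.55 (SE 0.13) in the Ezh2a set. With only genes of an average log2 CPM of at least 1 tested, 2 rises were called in this list, since rises under that level, that of Hoxa2 among them, were left out.

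The 6 falls were in HoxA and HoxD. Hoxd12 (chromosome 2, 74675013 to 74677705, plus strand) was at 11.2, 12.7 and 10.9 CPM in the Ezh2b mutant, against 25.8, 22.9 and 23.6 CPM in its wild type. Hoxd12 was at 9.77, 8.93 and 8.68 CPM in the Ezh2a mutant, against 11.6, 12.1 and 13.1 CPM in its wild type. All mutant libraries were below their wild types, with log2 fold changes of -1.05 (SE 0.077) in the Ezh2b set and -0.42 (SE 0.084) in the Ezh2a set. Those of Hoxd11 were -1.02 (SE 0.075) in the Ezh2b set and -0.58 (SE 0.081) in the Ezh2a set, and those of Hoxd10 were -0.64 (SE 0.068) in the Ezh2b set and -0.42 (SE 0.072) in the Ezh2a set. Hoxd13 had -1.18 (SE 0.053) in the Ezh2b set and -0.26 (SE 0.055) in the Ezh2a set. Hoxa11 had -0.43 (SE 0.072) in the Ezh2b set and -0.79 (SE 0.078) in the Ezh2a set, and Hoxa10 had -0.27 (SE 0.075) in the Ezh2b set and -0.56 (SE 0.078) in the Ezh2a set. Hoxa10 did not pass in the Ezh2b set without Ezh2b mutant replicate 1 (adjusted p = 0.0703) or Ezh2b mutant replicate 3 (adjusted p = 0.0567) or Ezh2b wild-type replicate 3 (adjusted p = 0.0833). Hoxa10 and Hoxd13 were not among the genes set to be named and are given to complete the group.

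In HoxC, Hoxc5, Hoxc6, Hoxc8, Hoxc9 and Hoxc10 were called opposite ways, with log2 fold changes of 0.36 to 1.22 in the Ezh2b set and -0.78 to -0.32 in the Ezh2a set. Without Ezh2a mutant replicate 1, 2 genes of groups 1 to 9 were called opposite ways. All 8 tested HoxB genes rose in the Ezh2b mutant, against 14.0% of all tested genes, and none of them passed in the Ezh2a set. Several Hox genes overlap transcripts of the other strand: Hoxa5 overlaps Hoxaas3, Hoxd3 overlaps Haglr and Hoxa11 overlaps Hoxa11os. Hoxd3 and Hoxd4 share a span on the same strand, where counting may split their reads. The annotated span of Hoxc5 likewise overlaps Hoxc6, Hoxc8, Hoxc9 and Hoxc10 on the same strand. The opposite calls of these HoxC genes may thus not be independent.

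**Figure D4:**
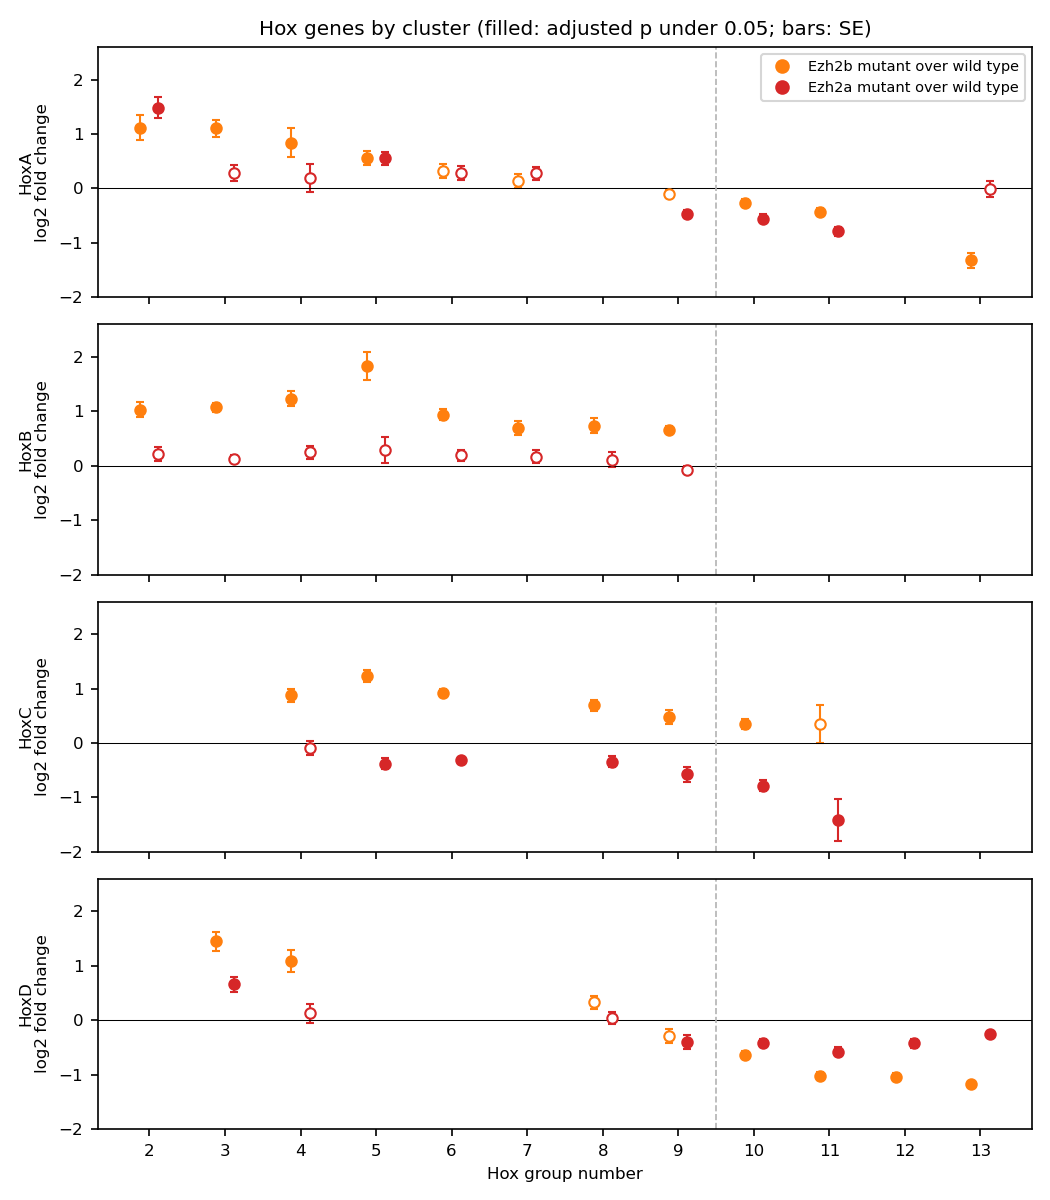
Log2 fold change with SE (y axes) of tested Hox genes by its group number (x axis) in each cluster, for the Ezh2b mutant and the Ezh2a mutant over their own wild types. In HoxA and HoxD the effects of both mutants lie above 0 in groups 2 to 8 and below 0 from group 9 on, while HoxC genes lie above 0 in the Ezh2b mutant and below 0 in the Ezh2a mutant. Open points did not pass at an adjusted p of 0.05.

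Other transcription factors of development also moved in both directions. Of 83 tested factors, 11 rose in both mutants, 5 fell in both (19.3% together) and 16 were called opposite ways. Their median mean effect was 0.214. Of all tested genes, 2.16% rose in both, 1.46% fell in both (3.63% together) and 5.96% were called opposite ways. These are also the shares to set beside each list below. Besides Pou3f3 and Zic1, Tbx1, a T-box factor of the pharyngeal arches, rose by 1.13 (SE 0.24) in the Ezh2b set and 0.90 (SE 0.22) in the Ezh2a set. Dlx1, a homeobox factor of the forebrain and branchial arches, was at 0, 0.0876 and 0.0951 CPM in the Ezh2b mutant, against 0 CPM in all 3 libraries in its wild type. Dlx1 was at 1.03, 1.64 and 1.24 CPM in the Ezh2a mutant, against 0.128, 0.194 and 0.124 CPM in its wild type. Ezh2b mutant replicate 1 was at 0 like its wild types, so the Ezh2b groups overlapped, while the Ezh2a groups did not. With each set fitted on its own the Ezh2b call of Dlx1 did not pass (adjusted p = 0.147). It did not pass either in 6 of the fits without 1 library, those without Ezh2a mutant replicate 3, Ezh2b mutant replicate 2 or 3, or any Ezh2b wild-type library (adjusted p = 0.0529 to 0.123). Some of the other rises also did not pass in both sets in fits without 1 library, or with DESeq2 or limma-voom. The 5 falls were not among the genes set to be named, and were Foxf2, Gata2, Lhx9, Tfap2a and Tfap2b. Gata2, a zinc-finger factor of blood and endothelium, had log2 fold changes of -0.65 (SE 0.13) in the Ezh2b set and -1.82 (SE 0.15) in the Ezh2a set. Foxf2, a forkhead factor of mesenchyme, had -1.16 (SE 0.19) in the Ezh2b set and -0.90 (SE 0.2) in the Ezh2a set. Tfap2a, an AP-2 factor of neural crest, had -1.06 (SE 0.1) in the Ezh2b set and -0.51 (SE 0.11) in the Ezh2a set, and its relative Tfap2b had -1.02 (SE 0.07) in the Ezh2b set and -0.32 (SE 0.079) in the Ezh2a set. Lhx9, a LIM homeobox factor of gonad and limb, had -0.87 (SE 0.041) in the Ezh2b set and -0.28 (SE 0.045) in the Ezh2a set.

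Cartilage and matrix genes moved alike in part. Of 19 tested cartilage and bone genes, 3 rose in both mutants, 0 fell in both (15.8% together) and 5 were called opposite ways. Besides Acan, the rises were of Col11a1 and Col11a2, which encode chains of type XI collagen, a component of cartilage fibrils. Col11a1 rose by 0.24 (SE 0.04) in the Ezh2b set and 0.56 (SE 0.04) in the Ezh2a set. Col11a2 rose by 0.50 (SE 0.14) in the Ezh2b set and 0.75 (SE 0.13) in the Ezh2a set, and did not pass in the Ezh2b set without Ezh2b mutant replicate 3 (adjusted p = 0.09) or Ezh2b wild-type replicate 3 (adjusted p = 0.0506). Col2a1, the main collagen of cartilage, was called opposite ways. It was at 3.09 ± 0.755 CPM in the Ezh2b mutant and 6.55 ± 0.843 CPM in its wild type, and at 123 ± 6.36 CPM in the Ezh2a mutant and 1.15 ± 0.0956 CPM in its wild type (SD, n = 3 each). Col2a1 was chosen after its values were seen.

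Of 48 tested matrix genes, 5 rose in both mutants, 3 fell in both (16.7% together) and 9 were called opposite ways. Col14a1, a collagen that associates with fibrils (chromosome 15, 55307750 to 55520803, plus strand), was at 47.3, 54.3 and 48.2 CPM in the Ezh2b mutant, against 26.6, 25.8 and 26.2 CPM in its wild type. Col14a1 was at 120, 129 and 107 CPM in the Ezh2a mutant, against 76.7, 79.3 and 78.4 CPM in its wild type. Every mutant library lay above its own wild types, with log2 fold changes of 0.93 (SE 0.064) in the Ezh2b set and 0.61 (SE 0.057) in the Ezh2a set. Lum, a small proteoglycan of collagen fibrils, rose by 0.37 (SE 0.087) in the Ezh2b set and 0.74 (SE 0.08) in the Ezh2a set. Mfap5, a protein of elastic microfibrils, had -0.55 (SE 0.056) in the Ezh2b set and -0.59 (SE 0.058) in the Ezh2a set, and Ltbp2, a latent TGF-beta binding protein family member of elastic fibres, had -0.26 (SE 0.043) in the Ezh2b set and -0.45 (SE 0.044) in the Ezh2a set.

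Of 30 tested matrix proteases and inhibitors, 2 rose in both mutants, 3 fell in both (16.7% together) and 10 were called opposite ways. Adamts1 and Adamts5, proteases that cut aggrecan and versican, fell: Adamts1 had -0.56 (SE 0.048) in the Ezh2b set and -0.32 (SE 0.048) in the Ezh2a set, and Adamts5 had -0.36 (SE 0.037) in the Ezh2b set and -0.18 (SE 0.037) in the Ezh2a set. The other fall did not pass in both sets with library totals or in most fits without 1 library. Adamtsl1, a secreted relative of Adamts1 and Adamts5 without a protease domain, rose by 0.36 (SE 0.059) in the Ezh2b set and 0.29 (SE 0.058) in the Ezh2a set. Of 22 tested contractile and adhesion genes, 3 rose in both mutants, 1 fell in both (18.2% together) and 8 were called opposite ways. The fall did not pass in both sets with library totals or in some fits without 1 library. Myh11, the myosin heavy chain of smooth muscle, rose by 1.10 (SE 0.058) in the Ezh2b set and 0.43 (SE 0.062) in the Ezh2a set. Itga1, an integrin subunit that binds collagen, rose by 0.41 (SE 0.057) in the Ezh2b set and 0.36 (SE 0.056) in the Ezh2a set, and Itga8, another integrin subunit, by 0.30 (SE 0.045) in the Ezh2b set and 0.34 (SE 0.047) in the Ezh2a set.

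Among signalling genes, members of the Wnt pathway were called in both mutants. Of 36 tested Wnt genes, 5 rose in both mutants, 1 fell in both (16.7% together) and 7 were called opposite ways. The ligand Wnt4 rose by 1.76 (SE 0.27) in the Ezh2b set and 0.91 (SE 0.23) in the Ezh2a set. The secreted modulator Sfrp4 was at 1.21, 1.09 and 1.08 CPM in the Ezh2b mutant, against 0.386, 0.551 and 0.695 CPM in its wild type. Sfrp4 was at 3.48, 5.05 and 4.52 CPM in the Ezh2a mutant, against 2.3, 2.52 and 1.87 CPM in its wild type. Its mutant libraries lay above their wild types, with log2 fold changes of 0.98 (SE 0.25) in the Ezh2b set and 0.96 (SE 0.18) in the Ezh2a set. Nkd2, which binds Dishevelled and is known as a feedback inhibitor, rose by 0.90 (SE 0.1) in the Ezh2b set and 0.60 (SE 0.097) in the Ezh2a set. Its relative Nkd1 rose by 0.44 (SE 0.13) in the Ezh2b set and 0.40 (SE 0.11) in the Ezh2a set. Nkd1 did not pass in the Ezh2a set without Ezh2a mutant replicate 2 (adjusted p = 0.0935) or Ezh2a wild-type replicate 2 (adjusted p = 0.0619), nor in the Ezh2b set without Ezh2b wild-type replicate 2 (adjusted p = 0.0557). The other rise did not pass in the Ezh2a set in some fits without 1 library. The fall was that of Dkk2, a secreted Wnt antagonist not among the genes set to be named, with -0.19 (SE 0.04) in the Ezh2b set and -0.88 (SE 0.038) in the Ezh2a set.

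Of 39 tested BMP and TGF-beta genes, 4 rose in both mutants, 1 fell in both (12.8% together) and 6 were called opposite ways. The ligand Tgfb2 rose by 0.21 (SE 0.056) in the Ezh2b set and 0.28 (SE 0.058) in the Ezh2a set. The co-receptor Eng, which overlaps Fpgs on the other strand, rose by 0.40 (SE 0.076) in the Ezh2b set and 0.35 (SE 0.079) in the Ezh2a set. Id2, a BMP target that inhibits helix-loop-helix factors, rose by 0.43 (SE 0.072) in the Ezh2b set and 0.29 (SE 0.064) in the Ezh2a set. The co-receptor Tgfbr3 had log2 fold changes of -0.37 (SE 0.046) in the Ezh2b set and -0.41 (SE 0.045) in the Ezh2a set.

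Of 24 tested FGF genes, 1 rose in both mutants, 1 fell in both and 4 were called opposite ways, so that 8.33% moved the same way, beside 3.63% of all tested genes. Fgf10, a ligand of limb and lung budding (chromosome 13, 118669791 to 118792115, plus strand), was at 6.9, 6.94 and 7.64 CPM in the Ezh2b mutant, against 11.9, 11.7 and 13.5 CPM in its wild type. Fgf10 was at 5.06, 4.45 and 4.71 CPM in the Ezh2a mutant, against 7.78, 7.81 and 7.31 CPM in its wild type. The libraries did not overlap in either set, with log2 fold changes of -0.80 (SE 0.086) in the Ezh2b set and -0.69 (SE 0.095) in the Ezh2a set. Fgf13, an intracellular member of the family, rose by 0.44 (SE 0.15) in the Ezh2b set and 1.10 (SE 0.16) in the Ezh2a set, and did not pass in the Ezh2b set without any Ezh2b mutant library or without Ezh2b wild-type replicate 1 or 2 (adjusted p = 0.0517 to 0.0995). Nor did Fgf13 pass there with library totals (adjusted p = 0.0503) or with DESeq2 (adjusted p = 0.0511). Of 11 tested Hedgehog genes, 1 rose in both mutants, 0 fell in both (9.09% together) and 2 were called opposite ways. The rise was that of Hhip, which binds and restrains Hedgehog ligands, by 1.11 (SE 0.17) in the Ezh2b set and 1.65 (SE 0.2) in the Ezh2a set.

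Of 16 tested IGF genes, 2 rose in both mutants, 0 fell in both (12.5% together) and 7 were called opposite ways. Igfbp5, a binding protein for insulin-like growth factors, rose by 1.05 (SE 0.06) in the Ezh2b set and 0.30 (SE 0.059) in the Ezh2a set. Igfbp3, another of these proteins, rose by 0.33 (SE 0.096) in the Ezh2b set and 0.43 (SE 0.093) in the Ezh2a set, and did not pass in the Ezh2b set without Ezh2b mutant replicate 2 (adjusted p = 0.116) or Ezh2b wild-type replicate 2 (adjusted p = 0.0671), nor with DESeq2 (adjusted p = 0.0554).

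Of 15 tested retinoic acid genes, 2 rose in both mutants, 2 fell in both (26.7% together) and 1 was called opposite ways. Crabp1, which binds retinoic acid in the cytoplasm (chromosome 9, 54764748 to 54773110, plus strand), was at 157, 153 and 155 CPM in the Ezh2b mutant, against 102, 100 and 101 CPM in its wild type. Crabp1 was at 154, 161 and 159 CPM in the Ezh2a mutant, against 98.5, 96 and 94.2 CPM in its wild type. The libraries of both mutants were above those of both wild types, and the log2 fold changes were 0.61 (SE 0.033, adjusted p = 3.63e-11) in the Ezh2b set and 0.71 (SE 0.033, adjusted p = 1.87e-11) in the Ezh2a set. Its relative Crabp2 had -0.20 (SE 0.047) in the Ezh2b set and -0.32 (SE 0.051) in the Ezh2a set. Aldh1a1, which makes retinoic acid, rose by 1.34 (SE 0.19) in the Ezh2b set and 0.47 (SE 0.15) in the Ezh2a set, and did not pass in the Ezh2a set without replicate 1 or 2 of either group of that set (adjusted p = 0.0938 to 0.134). The receptor Rara had -0.20 (SE 0.061) in the Ezh2b set and -0.25 (SE 0.063) in the Ezh2a set, and did not pass in the Ezh2b set without mutant replicate 2 or 3 or wild-type replicate 1 or 2 of that set (adjusted p = 0.0547 to 0.139), nor with that set fitted on its own (adjusted p = 0.0585).

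Of 54 tested guidance cues and receptors, 7 rose in both mutants, 2 fell in both (16.7% together) and 7 were called opposite ways. Epha3, an ephrin receptor (chromosome 16, 63543534 to 63864175, minus strand), was at 108, 113 and 107 CPM in the Ezh2b mutant, against 70.5, 68.4 and 71.2 CPM in its wild type. Epha3 was at 233, 233 and 231 CPM in the Ezh2a mutant, against 151, 153 and 152 CPM in its wild type. The groups of each set did not overlap, and the log2 fold changes were 0.64 (SE 0.035) in the Ezh2b set and 0.61 (SE 0.033) in the Ezh2a set, with a difference of 0.03 (SE 0.047, adjusted p = 0.711). The semaphorin receptor Plxna2 rose by 0.49 (SE 0.062) in the Ezh2b set and 1.26 (SE 0.058) in the Ezh2a set, and the semaphorin Sema5b by 0.84 (SE 0.22) in the Ezh2b set and 1.34 (SE 0.28) in the Ezh2a set. Some of the other rises did not pass in both sets in fits without 1 library, or with DESeq2. The falls, not among the genes set to be named, were the semaphorins Sema3f, with -0.51 (SE 0.041) in the Ezh2b set and -0.22 (SE 0.042) in the Ezh2a set, and Sema6a, with -0.42 (SE 0.064) in the Ezh2b set and -0.42 (SE 0.072) in the Ezh2a set.

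Polycomb genes themselves were not called the same way in both sets. At the 3.63% of all tested genes so called, short lists like these would hold few or none. Of 13 tested PRC2 subunits, 22 PRC1 subunits and 17 enzymes of H3K27 and DNA methylation, 0 were called the same way in both sets by edgeR, and 0 PRC2 subunits, 2 PRC1 subunits and 2 of these enzymes were called opposite ways. DESeq2 and limma-voom also called 0 the same way in each of these lists, and with an unadjusted p under 0.05 in both sets edgeR counted 1 in each, Aebp2 and Tet3 among them, which were chosen after their values were seen. The mean effect passed downward in 4 of the 13 PRC2 subunits and upward in 0, beside 9.49% and 12.0% of all tested genes. Taken singly, the Ezh2b set called 3 of the 13 lower and the Ezh2a set 1. Ezh2 itself passed downward in the Ezh2a set and for the mean effect, as given above, but not in the Ezh2b set. For PRC1 the mean effect passed upward in 4 and downward in 1, and for the enzymes upward in 3 and downward in 0. Of 36 tested genes of G2 and mitosis, 0 moved the same way and 35 were called opposite ways, all lower in the Ezh2b mutant and higher in the Ezh2a mutant. Their median log2 fold change was -0.366 in the Ezh2b set and 0.279 in the Ezh2a set. Of 44 DNA replication genes, 0 moved the same way and 9 were called opposite ways. For these and the Polycomb lists, the shares over all tested genes were 3.63% the same way and 5.96% opposite ways. In the mitosis and replication lists the count of same-way genes was also 0 at an unadjusted p under 0.05, with DESeq2 and with limma-voom. Cdkn1c, an imprinted inhibitor of the cell cycle, rose in both mutants, by 0.65 (SE 0.12) in the Ezh2b set and 0.61 (SE 0.11) in the Ezh2a set.

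Of 35 tested interferon-stimulated genes, 3 fell in both mutants, 0 rose in both and 0 were called opposite ways, while the mean effect passed downward in 31, against 9.49% of all tested genes. The median log2 fold change was -0.181 in the Ezh2b set, which called 3 lower, and -0.765 in the Ezh2a set, which called 33 lower. Of all tested genes, the Ezh2b set called 12.1% lower and the Ezh2a set 10.2%. Psmb8, a subunit of the immunoproteasome, was at 11.1, 11.3 and 8.18 CPM in the Ezh2b mutant, against 16.6, 14.6 and 14.2 CPM in its wild type. Psmb8 was at 16.8, 12.8 and 13.4 CPM in the Ezh2a mutant, against 18.1, 20.2 and 21.8 CPM in its wild type. The libraries of each set did not overlap, with log2 fold changes of -0.56 (SE 0.12) in the Ezh2b set and -0.48 (SE 0.11) in the Ezh2a set. Ifit2, an interferon-induced RNA-binding protein, had -0.43 (SE 0.092) in the Ezh2b set and -0.34 (SE 0.091) in the Ezh2a set, and Oasl1, a relative of the oligoadenylate synthetases, had -0.91 (SE 0.28) in the Ezh2b set and -0.999 (SE 0.29) in the Ezh2a set. Ifit2 did not pass in the Ezh2a set without Ezh2a mutant replicate 2 (adjusted p = 0.088) or Ezh2a wild-type replicate 2 (adjusted p = 0.0534) or Ezh2a wild-type replicate 3 (adjusted p = 0.079). Oasl1 did not pass in the Ezh2a set in 4 of the fits without 1 library of that set, those without mutant replicate 1 or 2 or wild-type replicate 2 or 3 (adjusted p = 0.0575 to 0.104), nor in the Ezh2b set without Ezh2b mutant replicate 3 (adjusted p = 0.102) or Ezh2b wild-type replicate 1 (adjusted p = 0.157) or with limma-voom (adjusted p = 0.052). The 3 common falls became 1 without Ezh2a mutant replicate 2 or without Ezh2a wild-type replicate 2 or 3, and 13 with no filter on low counts. The 31 falls of the mean effect became 19 without Ezh2a mutant replicate 2 and 20 without Ezh2a wild-type replicate 3.

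Of 24 tested cholesterol synthesis genes, 1 fell in both mutants, 0 rose in both and 1 was called opposite ways, while the mean effect passed downward in 17. Over all tested genes, 1.46% fell in both sets and 9.49% fell for the mean effect. The common fall was that of Sqle, the squalene epoxidase, with -0.16 (SE 0.035) in the Ezh2b set and -0.14 (SE 0.036) in the Ezh2a set, which did not pass in the Ezh2a set without Ezh2a mutant replicate 3 (adjusted p = 0.0524) or Ezh2a wild-type replicate 2 (adjusted p = 0.0816), nor with library totals (adjusted p = 0.0788). The count of common falls ran from 0 without Ezh2a wild-type replicate 2 to 5 without Ezh2b wild-type replicate 3, and was 2 without Ezh2a mutant replicate 3, Ezh2a wild-type replicate 3 or Ezh2b wild-type replicate 1. Of 40 tested imprinted genes, 2 rose in both mutants, Zdbf2 and Cdkn1c, 0 fell in both and 7 were called opposite ways. This is 5% moving the same way, near the 3.63% of all tested genes. The mean effect passed upward in 17 of them, beside 12.0% of all tested genes, and downward in 0. Common rises numbered 4 without Ezh2b wild-type replicate 1 and 5 without Ezh2b wild-type replicate 3, and opposite calls numbered 4 without Ezh2b mutant replicate 3.

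Of 20 tested macrophage and leukocyte markers, 3 rose in both mutants, 0 fell in both and 3 were called opposite ways, while the mean effect passed upward in all 20, against 12.0% of all tested genes. All 20 rose in the Ezh2b mutant, with a median log2 fold change of 2.05, and 3 rose and 3 fell in the Ezh2a mutant, with a median of 0.02. Of all tested genes, 14.0% rose in the Ezh2b set, and 9.61% rose and 10.2% fell in the Ezh2a set. Cx3cr1, the fractalkine receptor, was at 22.1, 22.4 and 21.1 CPM in the Ezh2b mutant, against 5.69, 5.4 and 4.9 CPM in its wild type. Cx3cr1 was at 84.1, 90 and 83.2 CPM in the Ezh2a mutant, against 73.4, 71.7 and 71.2 CPM in its wild type. The libraries did not overlap in either set, and the log2 fold changes were 2.06 (SE 0.064) in the Ezh2b set and 0.25 (SE 0.043) in the Ezh2a set. Laptm5, a lysosomal protein of blood cells, rose by 2.19 (SE 0.067) in the Ezh2b set and 0.24 (SE 0.049) in the Ezh2a set, and Mrc1, the macrophage mannose receptor, by 2.05 (SE 0.087) in the Ezh2b set and 0.41 (SE 0.061) in the Ezh2a set. The part of these markers in the other rises was not tested.

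Of 15 tested fibroblast markers, 3 rose in both mutants, 0 fell in both (20% together) and 3 were called opposite ways. Dcn, a small proteoglycan, rose by 0.81 (SE 0.061) in the Ezh2b set and 0.22 (SE 0.057) in the Ezh2a set, and did not pass in the Ezh2a set without Ezh2a mutant replicate 2 (adjusted p = 0.0589) or Ezh2a wild-type replicate 2 (adjusted p = 0.0588). Of 16 tested adipocyte regulators, 2 rose in both mutants, 1 fell in both (18.8% together) and 2 were called opposite ways. Lpl, lipoprotein lipase, was at 17.7, 20.7 and 15.5 CPM in the Ezh2b mutant, against 12, 10.3 and 12.2 CPM in its wild type. Lpl was at 57.5, 65.1 and 59.1 CPM in the Ezh2a mutant, against 35.2, 35.4 and 37.2 CPM in its wild type. The libraries of each set did not overlap, with log2 fold changes of 0.65 (SE 0.091) in the Ezh2b set and 0.75 (SE 0.075) in the Ezh2a set. The fatty acid carrier Fabp4 had -0.62 (SE 0.12) in the Ezh2b set and -0.79 (SE 0.12) in the Ezh2a set.

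Of 11 tested mesothelial markers, 1 rose in both mutants, 1 fell in both (18.2% together) and 6 were called opposite ways. Gpm6a, a membrane glycoprotein also known from neurons, rose by 1.57 (SE 0.26) in the Ezh2b set and 0.80 (SE 0.18) in the Ezh2a set. Krt19, a keratin of epithelia and mesothelium, had -0.70 (SE 0.083) in the Ezh2b set and -0.70 (SE 0.095) in the Ezh2a set. In the Ezh2b set 9 of these markers rose and 1 fell, with a median log2 fold change of 2.16, and in the Ezh2a set 1 rose and 7 fell, with a median of -0.577. The mean effect passed upward in 8 and downward in 1. Of all tested genes, 14.0% rose and 12.1% fell in the Ezh2b set, and 9.61% rose and 10.2% fell in the Ezh2a set. The mean effect passed upward in 12.0% and downward in 9.49% of them. Mesothelial markers together held 0.00948% to 0.01% of counts in the Ezh2b mutant and 0.00753% to 0.00881% in its wild type, and 0.0141% to 0.0146% in the Ezh2a mutant and 0.0176% to 0.0185% in its wild type. Of 7 tested epithelial markers, 0 rose in both mutants, 1 fell in both and 2 were called opposite ways, where the fall was again that of Krt19.

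Of 13 tested neural and glial markers, 2 rose in both mutants, 0 fell in both (15.4% together) and 1 was called opposite ways. Ncam1, a neural cell adhesion molecule, rose by 0.79 (SE 0.047) in the Ezh2b set and 0.19 (SE 0.047) in the Ezh2a set. Fabp7, a fatty acid carrier of radial glia, rose by 1.93 (SE 0.63) in the Ezh2b set and 2.31 (SE 0.42) in the Ezh2a set. Fabp7 did not pass in the Ezh2b set without mutant replicate 1 or 3 or wild-type replicate 1 or 2 of that set (adjusted p = 0.0502 to 0.111), nor with that set fitted on its own (adjusted p = 0.0741).

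Of 14 tested complement genes, 1 rose in both mutants, 2 fell in both (21.4% together) and 2 were called opposite ways. Cd55, an inhibitor on the cell surface, had -0.32 (SE 0.058) in the Ezh2b set and -0.44 (SE 0.059) in the Ezh2a set. Of 28 tested inflammatory cytokines and chemokines, 1 rose in both mutants, 1 fell in both (7.14% together) and 7 were called opposite ways. The cytokine Il33 rose by 1.09 (SE 0.21) in the Ezh2b set and 0.66 (SE 0.17) in the Ezh2a set, and did not pass in the Ezh2a set without Ezh2a mutant replicate 2 (adjusted p = 0.056). The chemokine Cxcl5 had -0.91 (SE 0.072) in the Ezh2b set and -0.28 (SE 0.072) in the Ezh2a set, and did not pass in the Ezh2a set without Ezh2a mutant replicate 2 (adjusted p = 0.0741) or Ezh2a wild-type replicate 1 (adjusted p = 0.0511).

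**Figure D5:**
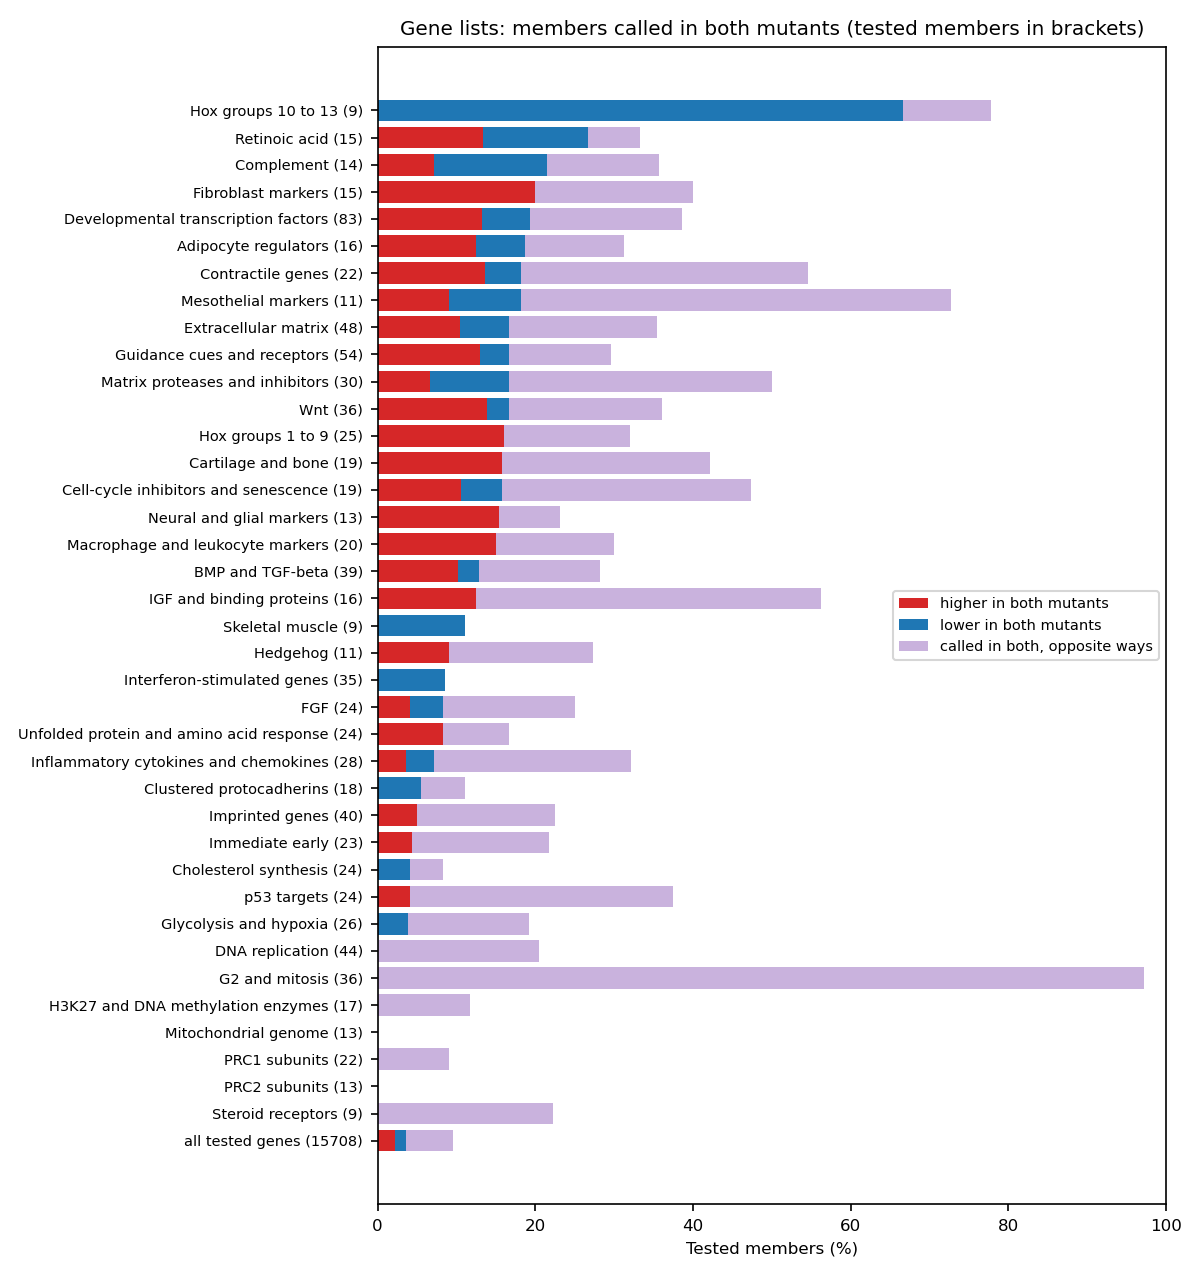
Share of the tested members of each gene list (x axis, percent, lists down the page) that were higher in both mutants, lower in both, or called in both with opposite signs. Of the Hox genes of groups 10 to 13, 6 of 9 were lower in both mutants, and 35 of the 36 genes of G2 and mitosis were called opposite ways.

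Genes with a large mean effect that were not called in both sets often rested on 1 set. Car3, a carbonic anhydrase, was at 0, 0 and 0.19 CPM in the Ezh2b mutant, against 0 CPM in all 3 libraries in its wild type. Car3 was at 3.65, 4.18 and 3.01 CPM in the Ezh2a mutant, against 0 CPM in all 3 libraries in its wild type. Its level was thus seen in the Ezh2a mutant and, apart from 1 Ezh2b mutant library, was 0 elsewhere. Apoc2, an apolipoprotein, was at 0.427, 0.175 and 0.254 CPM in the Ezh2b mutant, against 0 CPM in all 3 libraries in its wild type, while in the Ezh2a set it was at 0.948, 1.1 and 0.961 CPM in the Ezh2a mutant, against 0.842, 0.646 and 0.591 CPM in its wild type. Lypd1 was at 0.0711, 0.35 and 0.0951 CPM in the Ezh2b mutant, against 1.54, 1.62 and 2.07 CPM in its wild type, and its Ezh2a effect was -0.02 (SE 0.52, adjusted p = 0.985).

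Of the genes called opposite ways, Des, the muscle intermediate filament desmin, was at 37.9, 38.7 and 37.4 CPM in the Ezh2b mutant, against 15.6, 14.7 and 13.8 CPM in its wild type. Des was at 32.9, 34.5 and 35.2 CPM in the Ezh2a mutant, against 109, 112 and 105 CPM in its wild type. Its log2 fold changes were 1.38 (SE 0.052) in the Ezh2b set and -1.67 (SE 0.046) in the Ezh2a set, so the groups parted in opposite directions. Ntrk2, a neurotrophin receptor, had -1.17 (SE 0.28) in the Ezh2b set and 3.70 (SE 0.15) in the Ezh2a set.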

How the data were processed

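RNA was measured in 12 libraries of mouse embryonic fibroblasts, 3 in each of 4 groups. Poly-A RNA was captured on beads and random-primed, per the labels' protocols, which name no strand-marking step. The authors deposited a table of raw counts for 35602 gene symbols. The submitters' processing notes name fastp 0.21.0, HISAT2 2.1.0, StringTie 2.1.5, edgeR 4.2.1 and GRCm38. Not given in the sources used here is which program counted reads, on what annotation, and whether by strand. In the table, a count of 2 occurs 13267 times and a count of 1 occurs 3357 times, so counts may exceed the number of fragments.

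The filter filterByExpr, by group, kept 15708 genes. All 12 libraries entered 1 fit with a mean for each group in edgeR 4.0.16 in R 4.3.3, with TMM scaling and 8 residual degrees of freedom. The quasi-likelihood test was applied to each set's effect, to their mean and to their difference, with Benjamini-Hochberg adjustment over all tested genes. A gene moved the same way where both effects had an adjusted p under 0.05 and 1 sign. SE was obtained from the log2 fold change and the F statistic. The script was tested on simulated data.

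The genes to be named were Ezh2, Ezh1 and Cdkn2a, the 15 largest rises and falls by the smaller effect among same-way genes whose libraries were separated and whose average log2 CPM was 1 or more, up to 4 same-way members of each gene list, the 5 largest mean effects per direction that were not same-way, and up to 8 opposite genes per direction. Members and lists were chosen with earlier results of these data known. Positions are those of GENCODE M21, and promoters those of RefSeq on GRCm38. DESeq2 1.42.0 and limma 3.58.1 served as alternatives, with other scalings, filters, models and fits without each library. A few of the genes that this rule or the lists would name are not reported here.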

Additional observations from a re-analysis of the deposited data

Results flagged for a closer look

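The effects of the mutations differed between the sets for the genes below, with an adjusted p under 0.05 for the Ezh2b effect minus the Ezh2a effect by edgeR's quasi-likelihood test over all tested genes, and the differences are given as log2 values. Genes with a group at 0 in all its libraries were left out.

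Of the genes that rose in both mutants, the difference was negative, so that the rise was smaller in the Ezh2b set, for Clstn2 (-1.16), Pou3f3 (-1.07), Plxna2 (-0.77), Fgf13 (-0.66), Egfl6 (-0.51), Lum (-0.37), Zdbf2 (-0.33) and Col11a1 (-0.32). It was positive, so that the rise was larger in the Ezh2b set, for Col14a1 (0.33), Dcn (0.59), Ncam1 (0.61), Myh11 (0.67), Adamts9 (0.72), Igfbp5 (0.76), Hoxd3 (0.79), Aldh1a1 (0.87), Mrc1 (1.64), Cx3cr1 (1.80), Laptm5 (1.95) and Cd36 (1.95). Adamts9 did not pass in the Ezh2a set without replicate 1 or 2 of its mutant or replicate 1 or 3 of its wild type (adjusted p = 0.0628 to 0.177).

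Of the genes that fell in both mutants, the difference was negative, so that the fall was larger in the Ezh2b set, for Lrrtm3 (-1.24), Gabrb2 (-0.66), Cxcl5 (-0.63), Hoxd12 (-0.62), Galnt13 (-0.58), Slitrk2 (-0.54), Hoxd11 (-0.45), Ednrb (-0.39), Masp1 (-0.32), Adamts1 (-0.24) and Adamts5 (-0.19). It was positive, so that the fall was smaller in the Ezh2b set, for Ltbp2 (0.19), Hoxa11 (0.36) and Cdkn2a (0.65). Masp1 did not pass in the Ezh2a set with library totals (adjusted p = 0.109), nor in 6 of the fits without 1 library, those without Ezh2a mutant replicate 1 or 2, any Ezh2a wild-type library or Ezh2b mutant replicate 1 (adjusted p = 0.0564 to 0.184).

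Of the genes called opposite ways, the difference was negative for Ndst4 (-5.10), Ntrk2 (-4.87), Adora1 (-4.50), Reln (-3.60), Ndp (-3.29), Efhd1 (-3.08) and Lrrtm1 (-2.32), and positive for Pla2g7 (2.83), Des (3.05), Krt20 (3.45), Clec4e (3.67), Cyp4a12b (3.75), Ms4a2 (4.25), Gata4 (4.59) and Krt8 (4.70). Some of these sizes rest on few counts. Ndst4 had 0, 0 and 4 counts in the Ezh2b mutant, and Gata4 had 0, 4 and 3 in the Ezh2b wild type. Adora1 had 4, 3 and 0 counts in the Ezh2a wild type.

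Of the other named genes, the difference was -3.13 for Lypd1 and 1.07 for Ezh2.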

How the results depend on the processing

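With set and mutation as additive terms, 745 genes were higher and 576 lower for the mean effect, since by construction the difference between the sets then enters the residual. An adjusted p under 0.01 in both sets left 214 common rises, 130 common falls and 534 opposite calls, and a log2 fold change of at least 0.5 in both sets left 114 rises, 51 falls and 164 opposite calls. Without 1 library at a time, common rises numbered 282 to 389, common falls 158 to 266 and opposite calls 746 to 985. The mean effect then called 1688 to 2010 genes higher and 1103 to 1570 lower. The Ezh2b set called 1930 to 2233 higher and 1465 to 1858 lower, the Ezh2a set 1195 to 1779 higher and 1100 to 1864 lower, and the difference passed in 3728 to 4321 genes. Common rises and falls numbered 317 and 225 with DESeq2's test and 353 and 224 with limma-voom. With the replicate number as a block they were 318 and 207, of which 301 and 194 were among the reported ones, and the mean effect called 1743 genes higher and 1339 lower. With the block, adjusted p was 0.0561 for Adamts9, 0.0573 for Masp1 and 0.062 for Col1a2 in the Ezh2a set, and 0.0505 for Fgf13 and 0.0719 for Pcdhb16 in the Ezh2b set, and these were the named same-way genes that did not pass in both sets. The deviations of same-numbered mutant and wild-type libraries correlated at -0.0814 to -0.0115 across genes, so the numbers were not taken to pair the samples. In none of these fits did a gene called the same way become an opposite call. Of 103 named same-way genes, 77 passed in every fit without 1 library and 71 under every setting. The additive model called the mean effect upward in 10 of 25 Hox genes of groups 1 to 9 and 21 of 83 developmental factors. It did so in 11 of 40 imprinted genes and 4 of 20 macrophage markers. The reported fit called 18, 39, 17 and 20 in these lists. Downward, the additive model called 5 of 35 interferon-stimulated genes, 8 of 83 developmental factors and 9 of 24 cholesterol genes. The reported fit called 31, 18 and 17. The depth limits calls in genes with few counts, such as Dlx1, whose Ezh2b call did not pass with counts divided by 2 (adjusted p = 0.0588).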

Other observations

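Ezh2 lies on chromosome 6, as does the HoxA cluster. Within 2 Mb of Ezh2, 0 of 28 tested genes were called the same way in both sets by edgeR, 0 by DESeq2 and 1 by limma-voom, with 2 (Tmem176a and Tmem176b, chosen after their values were seen) at an unadjusted p under 0.05 in edgeR. Within 5 Mb, 7 of 61 were (11.5%), and 1 of 47 (2.13%) with Hox genes and their antisense transcripts left out, against 3.63% of all tested genes. Within 10 Mb, 10 of 121 were (8.26%), and 4 of 107 (3.74%) without those transcripts. Protein-coding genes made up 99.4% of the common rises and 97.8% of the common falls that could be matched to a single annotated gene, beside 93.7% of all tested genes so matched. For genes called opposite ways the share was 99.6%, so it is not particular to same-way genes.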
